A study of Mus musculus with 8 samples.

Results

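The miR-148 and miR-152 family comprises the mature miRs of 3 mouse hairpins, and its 6 members are both arms of each, mmu-miR-148a-3p, mmu-miR-148a-5p, mmu-miR-148b-3p, mmu-miR-148b-5p, mmu-miR-152-3p and mmu-miR-152-5p, written below without the species prefix. Members were found by name among the 1755 miRs of the authors' count table, where every arm had a row of its own. The family was chosen by the lower level of miR-148a-3p in one group, seen earlier in these same libraries, so differences between the groups are described here without a p-value for any member. Tests were kept for comparisons of arms and of members inside the same library. Extracellular vesicles (EVs), the membrane particles that cells release, came from oxidative muscle (OXI-EV, the soleus joined with red gastrocnemius) or glycolytic muscle (GLY-EV, the whole quadriceps). The muscle came from untreated, unmodified male C57BL/6J mice on standard chow, bought at an age of 10 to 12 weeks. It was kept in serum-free medium for 24 h, and the EVs were collected from that medium by ultrafiltration and size exclusion. Each group had 4 sequenced small RNA preparations, each from muscle of a single leg that was not pooled. Whole muscle also holds vascular, blood, connective tissue and satellite cells, so a miR cannot be assigned to the fibres, and fewer EVs of a kind and less RNA per EV cannot be told apart.

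A miR hairpin is cut by Dicer into a duplex, and one strand, the guide, is kept by an Argonaute protein while the other, the passenger, is mostly lost. The guide finds its target mRNAs mainly through its seed, bases 2 to 8. Guides of this family are the 3p arms, which have been described as repressing the mRNAs of the DNA methyltransferases Dnmt1 and Dnmt3b. miR-148a-3p has been described as promoting myoblast differentiation by repressing Rock1, a kinase of the actin cytoskeleton, and all 3 guides have been studied as tumour suppressors.

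The hairpins are shown because each count below belongs to 1 of the 2 stretches in capitals. The capitals mark the mature arms, the 5p arm first, in the RefSeq sequences of build GRCm38.p6.
Mir148a: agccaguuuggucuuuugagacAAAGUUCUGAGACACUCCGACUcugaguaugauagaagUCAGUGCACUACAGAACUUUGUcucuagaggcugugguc
Mir148b: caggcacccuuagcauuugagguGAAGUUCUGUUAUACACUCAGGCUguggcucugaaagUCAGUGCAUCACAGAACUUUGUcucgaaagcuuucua
Mir152: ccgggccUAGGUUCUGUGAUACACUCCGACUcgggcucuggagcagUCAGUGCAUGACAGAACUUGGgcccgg
Mir148a lies on the minus strand at chr6:51269812-51269910, where the GENCODE M21 annotation of GRCm38 has no other gene. Mir148b lies on the plus strand at chr15:103285125-103285221 in an intron of Copz1, and Mir152 on the plus strand at chr11:96850393-96850465 in an intron of Copz2. Both hosts are on the same strand as their hairpin and encode zeta subunits of the COPI vesicle coat.

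The mature arms are shown with the seed in capitals, since the seed defines the family.
miR-148a-3p: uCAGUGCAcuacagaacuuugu
miR-148b-3p: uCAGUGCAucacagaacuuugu
miR-152-3p: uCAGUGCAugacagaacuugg
miR-148a-5p: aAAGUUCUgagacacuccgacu
miR-148b-5p: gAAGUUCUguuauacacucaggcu
miR-152-5p: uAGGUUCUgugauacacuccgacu
All 3 guides carried the seed CAGUGCA, which no other of the 1679 mature mouse miRs in the RefSeq table had. Of the passengers, miR-148a-5p and miR-148b-5p shared the seed AAGUUCU, while miR-152-5p had AGGUUCU, found in no other miR of that table. Counted from base 1 at the 5′ end, the substitutions from miR-148a-3p to miR-148b-3p are C9U and U10C, with 20 of 22 bases identical. Those from miR-148a-3p to miR-152-3p are C9U, U10G and U20G over the 21 bases they share. A read of a guide is therefore assigned to its member by a few bases downstream of the seed, and reads with errors or short ends there could be counted for a relative. With mature lengths of 21 to 24 bases, no correction for length was needed in comparing members. Counts of different miRs also depend on how well the library kit captures each sequence, which was not tested.

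Libraries held 348730 to 572106 miR counts for OXI-EV and 587068 to 1004011 for GLY-EV, and 4151145 to 4867396 and 5179262 to 7197716 mapped reads. Levels are given as counts per 1000000 mapped reads (CPM), and log2 fold changes as OXI-EV minus GLY-EV. Across the 1569 miRs that reached 10 counts in 4 or more libraries, the median log2 fold change was 0.48 on this scale, 0.09 with TMM scaling (which takes most miRs as equal) and 0.98 relative to all miR counts of a library. The median differed by abundance, at -1.12 for the 129 miRs with a mean count of at least 100 and 0.52 for the 1440 below that. Muscle miRs were plentiful in both groups, and the sum of miR-206-3p, which is enriched in slow fibres, and of miR-133b-3p, miR-133a-3p and miR-1a-3p came to 51953 to 84334 CPM per OXI-EV library and 64679 to 122047 CPM per GLY-EV library. miR-206-3p was higher in OXI-EV past an adjusted p of 0.05 from edgeR (log2 fold change 2.58), and miR-133b-3p (-2.68), miR-133a-3p (-3.06) and miR-1a-3p (-1.69) were lower.

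The family was a small part of the EV miR content, and a larger part in GLY-EV. Over 4 libraries each, its 6 members together took 0.0980 ± 0.0342% of the miR counts of OXI-EV and 0.177 ± 0.0207% of those of GLY-EV (mean ± SD), with no overlap. The higher share in GLY-EV was that of the guides, at 0.0510 ± 0.0150% against 0.154 ± 0.0189%. Passengers went the other way as a share of miR counts, with 0.0471 ± 0.0213% for OXI-EV against 0.0235 ± 0.00745% for GLY-EV, and here the groups overlapped.

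miR-148a-3p was the most abundant member in GLY-EV and differed most between the groups. OXI-EV replicates 1 to 4 held 70, 104, 92 and 171 counts of it, and GLY-EV replicates 1 to 4 held 731, 695, 713 and 1178. The lowest GLY-EV library thus lay far above the highest OXI-EV library, and replicate 4 was the highest of both groups. Scaled to mapped reads, the means were 24.0 ± 8.29 CPM for OXI-EV against 138.6 ± 60.4 CPM for GLY-EV. Among all miRs of a library, ordered by count, it ranked 105 to 156 for OXI-EV and 33 to 39 for GLY-EV. Its log2 fold change was -2.53 (standard error 0.48), or -3.01 relative to the median of all miRs tested, and 7 of the 1569 miRs had a lower value. It was -2.96 (standard error 0.32) with TMM scaling and -2.04 (standard error 0.28) with the total miR count as library size. Relative to the median of all miRs, these were -3.05 and -3.02. A change of scale moves all miRs nearly alike, so the likeness of the values relative to the median is no check on the scale. The median of all miRs is set mostly by miRs of low count. Relative to the median of the miRs with a mean count of at least 100, fitted alone on mapped reads, the log2 fold change was -1.42.

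miR-152-3p, the guide of the hairpin inside Copz2, followed the same order at lower levels. Its level was 7.36, 14.0, 10.5 and 20.8 CPM from OXI-EV replicate 1 to replicate 4, and 30.6, 36.7, 26.6 and 77.4 CPM in the GLY-EV replicates. The groups again did not overlap, with means of 13.1 ± 5.75 and 42.8 ± 23.4 CPM. Its log2 fold change was -1.70 (standard error 0.54), and -2.18 relative to the median of all miRs. Relative to the median of the miRs with a mean count of at least 100, fitted alone, it was only -0.59. Without GLY-EV replicate 4, the highest library, the log2 fold changes were -1.25 (standard error 0.45) for miR-152-3p and -2.18 (standard error 0.37) for miR-148a-3p.

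miR-148b-3p, the guide of the hairpin inside Copz1, varied more among the OXI-EV libraries, relative to its mean, than the other guides. The OXI-EV replicates held 13, 96, 24 and 72 counts of it, against 155, 134, 91 and 188 for the GLY-EV replicates. OXI-EV replicate 2 reached the GLY-EV range, so the groups overlapped. Mean levels were 11.5 ± 9.29 CPM for OXI-EV against 23.3 ± 9.05 CPM for GLY-EV. The log2 fold change was -1.02 (standard error 0.64), and -1.60 (standard error 0.68) without OXI-EV replicate 2. Relative to the median of all miRs it was -1.50 with all libraries.

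**Figure D1:**
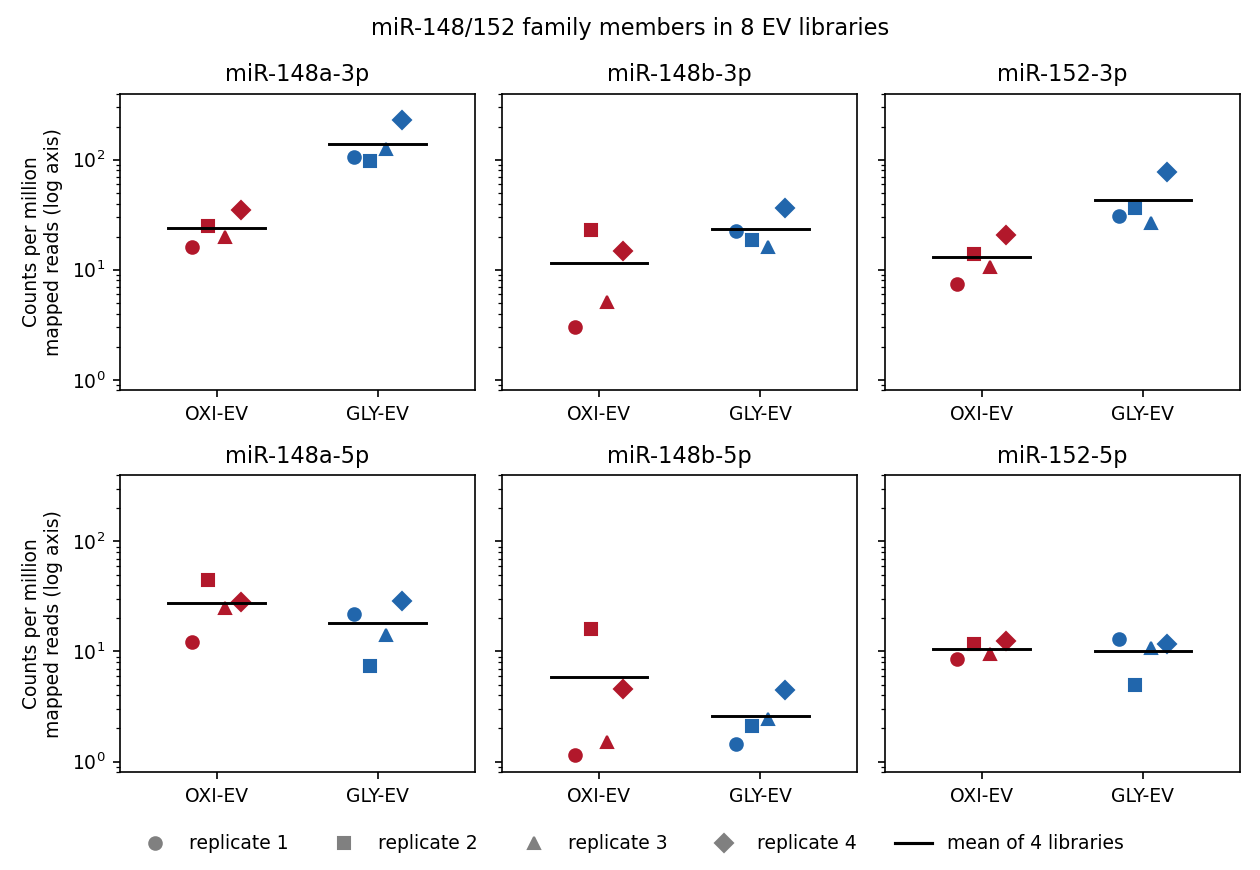
CPM, scaled to mapped reads (log axis), of the 6 family members in each library, with 1 symbol per replicate number and a bar at the mean of 4 libraries. miR-148a-3p and miR-152-3p do not overlap between OXI-EV and GLY-EV, while the 3 members of the 5p row overlap.

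None of the passengers showed the difference of its guide. For miR-148a-5p, the OXI-EV replicates gave 53, 186, 115 and 138 counts and the GLY-EV replicates 151, 53, 80 and 150. These ranges overlapped almost wholly, although OXI-EV libraries held fewer miR counts. It averaged 27.5 ± 13.5 CPM over OXI-EV and 18.0 ± 9.38 CPM over GLY-EV. The log2 fold change was 0.61 (standard error 0.56), or 0.13 relative to the median of all miRs. Relative to the median of the miRs with a mean count of at least 100, fitted alone, it was 1.72.

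miR-152-5p was at nearly the same mean level in both groups. Counts were 37, 49, 44 and 61 for the OXI-EV replicates and 89, 36, 62 and 61 for the GLY-EV replicates, with means of 10.6 ± 1.91 CPM and 10.1 ± 3.51 CPM. Its log2 fold change of 0.06 (standard error 0.46) lay within its error of 0, and was -0.34 (standard error 0.30) with TMM scaling and -0.42 relative to the median of all miRs.

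miR-148b-5p was the rarest member and rested on few counts. Only 5, 67, 7 and 22 counts came from the OXI-EV replicates and 10, 15, 14 and 23 from those of GLY-EV. OXI-EV replicate 2 alone was above all other libraries, and the means were 5.83 ± 7.04 CPM for OXI-EV against 2.61 ± 1.29 CPM for GLY-EV. The log2 fold change of 1.16 (standard error 0.77) turned to -0.11 (standard error 0.73) without that library. In OXI-EV replicate 2, miR-148a-5p and miR-148b-3p were also at their highest OXI-EV level, while miR-148a-3p and miR-152-3p were highest in OXI-EV replicate 4.

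Of the 6 members, all of which passed the filter on low counts, 1 was past an adjusted p of 0.05 from edgeR over all miRs, and it was lower in OXI-EV, beside 1.85% of all miRs tested past it in either direction and 1.78% lower. This member was miR-148a-3p, whose difference was known when the family was chosen, and nothing is read from the count. It was not past the threshold without OXI-EV replicate 1, 2 or 3, where its log2 fold changes were -2.38, -2.55 and -2.45. In CPM, 2 of the 6 members, miR-148a-3p and miR-152-3p, were lower in OXI-EV with no overlap between the groups, beside 4.53% of the miRs tested (8.22% in either direction). TMM scaling put both of these past the threshold, beside 5.42% of miRs lower in OXI-EV past it on that scale, and from neither count is anything read. Both are among the 129 abundant miRs, of which 22.5% were past the threshold, and miR-148a-3p had the 7th lowest and miR-152-3p the 35th lowest log2 fold change of these. miR-148a-5p is also among the 129 and stood near the other end, with the 111th lowest value.

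**Figure D2:**
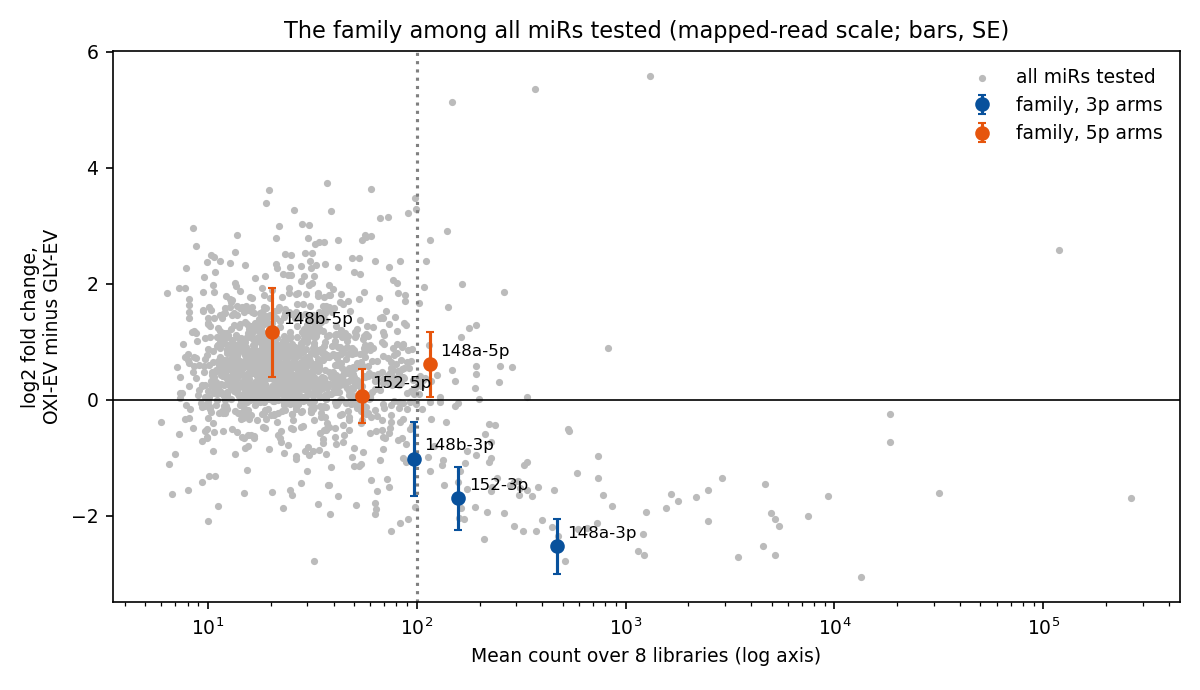
Log2 fold change, OXI-EV minus GLY-EV, against the mean count over 8 libraries (log axis) for the 1569 miRs tested (grey), with the family's 3p arms in blue and 5p arms in orange (bars, standard error). The dotted line is a mean count of 100. The 3p arms lie at -2.53, -1.70 and -1.02, and the 5p arms at 0.61, 1.16 and 0.06, of which the last (miR-152-5p) falls below 0 with TMM scaling.

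**Figure D3:**
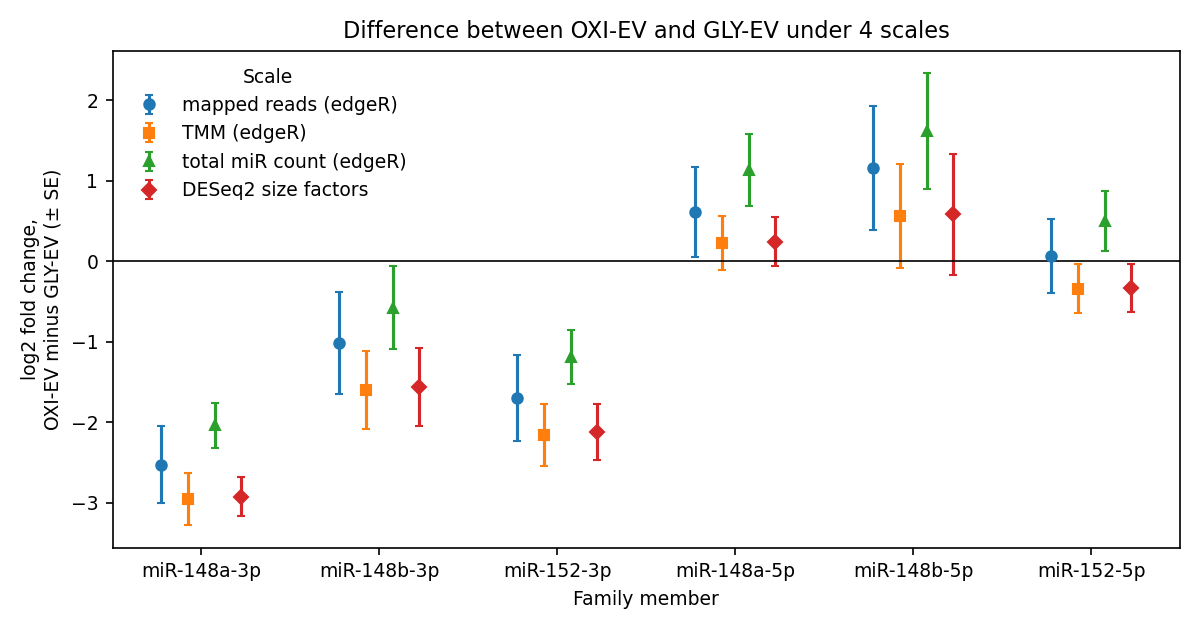
Log2 fold change with its standard error for each member under 4 scales. The 3p arms lie below 0 under each scale, miR-148a-5p and miR-148b-5p above it, and miR-152-5p is at 0.06 on the mapped-read scale and at -0.34 with TMM scaling.

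The balance of the arms needs no scaling, because both counts come from the same library. The 3p arm of miR-148a made up 56.9, 35.9, 44.4 and 55.3% of the counts of both its arms in OXI-EV replicates 1 to 4, and 82.9, 92.9, 89.9 and 88.7% in GLY-EV replicates 1 to 4. In OXI-EV the guide and passenger of this hairpin were thus about equally frequent, and in OXI-EV replicate 2 the passenger was the more frequent (95% Wilson interval of the 3p share 30.6 to 41.5%). In GLY-EV the guide prevailed in each library, with the lowest interval from 80.3 to 85.2%. Geometric mean ratios of 3p to 5p, with 0.5 counts added to each arm, were 0.925 for OXI-EV against 8.12 for GLY-EV.

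The hairpins of miR-152 and miR-148b had the same direction. For miR-152, the 3p arm made up 46.4, 54.2, 52.7 and 62.3% of both arms' counts in OXI-EV and 70.4, 88.0, 71.0 and 86.8% in GLY-EV. GLY-EV replicates 2 and 4 were well above replicates 1 and 3, and all 4 were above OXI-EV. For miR-148b, the 3p arm made up 72.2, 58.9, 77.4 and 76.6% in OXI-EV and 93.9, 89.9, 86.7 and 89.1% in GLY-EV. OXI-EV replicate 1 gave 18 counts of miR-148b in all, so its interval ran from 49.1 to 87.5%. These intervals cover counting error only.

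**Figure D4:**
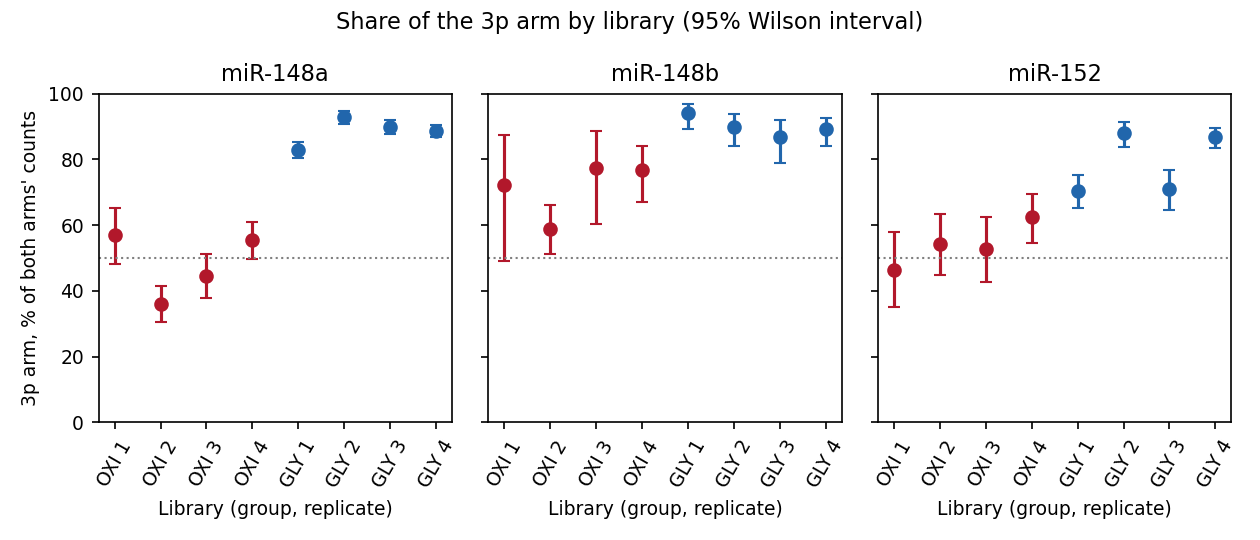
Share of the 3p arm in the counts of both arms (%) for each hairpin in each library, with 95% Wilson intervals. The dotted line marks equal arms. For miR-148a the OXI-EV libraries lie between 35.9 and 56.9% and the GLY-EV libraries between 82.9 and 92.9%.

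The log2 ratio of 3p to 5p was lower in OXI-EV for every hairpin, with means of -0.11 ± 0.58 for OXI-EV against 3.02 ± 0.59 for GLY-EV for miR-148a (SD, n = 4 each), a difference of -3.13. For miR-148b the means were 1.30 ± 0.56 and 3.17 ± 0.52. Those for miR-152 were 0.23 ± 0.38 and 2.02 ± 0.88. All 3 of 3 hairpins had groups that did not overlap, against 8.41% of the 511 hairpins with both arms tested, where the ratio is of the arm with the higher mean count to the other. Such a shift was more frequent among abundant miRs, with 35.5% of the 76 hairpins whose major arm had a mean count of at least 100, and 2 of the family's hairpins are among these. In this set the median of OXI-EV minus GLY-EV was -1.07, and miR-148a had the 3rd lowest and miR-152 the 22nd lowest value. These ratios contain the difference of miR-148a-3p that was known beforehand, so they are given without a test.

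Over the 8 libraries, 6 ratios inside the library were tested with an exact two-sided sign-flip permutation test. The p-values were adjusted over the 6, and the smallest possible p is 0.00781. The test takes the 8 libraries as independent, and whether any of them share a mouse is not stated. The 3p arm exceeded the 5p arm for miR-148b in 8 of 8 libraries by 4.71 times (exact permutation test, adjusted p = 0.0156), and for miR-152 in 7 of 8 by 2.18 times (exact permutation test, adjusted p = 0.0352). For miR-148a the ratio was 2.74 with 6 of 8 libraries above 1, and did not pass the threshold (exact permutation test, adjusted p = 0.0859). Within OXI-EV alone it was 0.925, with 2 of 4 libraries above 1 (exact permutation test, p = 0.750, where 4 libraries can give no less than 0.125). For miR-152 the ratio within OXI-EV was 1.17, with 3 of 4 libraries above 1 (exact permutation test, p = 0.375), and 4.07 within GLY-EV. For miR-148b it was 2.47 and 8.98. The values over 8 libraries thus mix groups that differ, and for miR-152 the arms were nearly equal within OXI-EV.

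Among the guides, miR-148a-3p was the most frequent in every library. It exceeded miR-148b-3p in 8 of 8 libraries by 3.96 times and miR-152-3p in 8 of 8 by 2.50 times (exact permutation test, adjusted p = 0.0156 for each). These ratios were 2.67 and 1.87 within OXI-EV and 5.87 and 3.34 within GLY-EV, so the values over 8 libraries mix groups that differ. The level of miR-148a-3p was known when the family was chosen, so nothing beyond its order in each library is read from these p-values. miR-152-3p exceeded miR-148b-3p in 7 of 8 libraries by 1.58 times (exact permutation test, adjusted p = 0.0375), the exception being OXI-EV replicate 2 with a ratio of 0.604. With any 1 library other than OXI-EV replicate 2 left out, that order was no longer past the threshold, at mean log2 ratios of 0.58 to 0.69 beside 0.66 with all 8. The 3p excess of miR-152 was likewise lost without OXI-EV replicate 4 or any 1 GLY-EV library, at 0.88 to 1.18 beside 1.13.

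The mix of guides is given as a description, since the shares and ratios of miR-148a-3p contain the difference the family was chosen by. As a share of guide counts, miR-148a-3p was at 51.7 ± 8.84% for OXI-EV against 67.9 ± 4.71% for GLY-EV, and its highest OXI-EV library, at 60.9%, was below its lowest GLY-EV library, at 63.6%. miR-152-3p made up 27.3 ± 3.34% and 20.5 ± 3.69%, with overlap. miR-148b-3p ranged from 11.3 to 37.2% over the OXI-EV libraries and from 9.52 to 14.1% over those of GLY-EV. Counts of miR-148a-3p were 2.19, 1.79, 1.88 and 1.69 times those of miR-152-3p in OXI-EV and 3.45, 2.63, 4.69 and 2.94 times in GLY-EV. This ratio varied little among the OXI-EV libraries and its groups did not overlap. Among the passengers, miR-148a-5p was at 62.3 ± 5.53% of passenger counts for OXI-EV against 56.7 ± 6.60% for GLY-EV, and miR-152-5p at 27.3 ± 9.29% against 34.0 ± 5.74%, both with overlap.

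**Figure D5:**
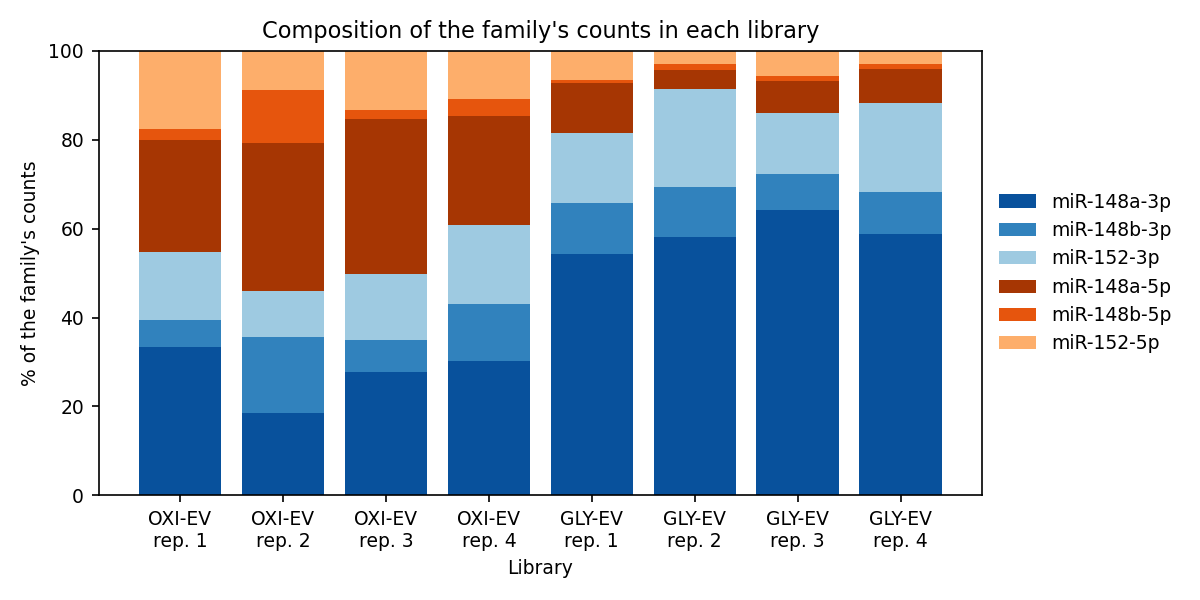
Share of each member in the family's counts (%) in each library, 3p arms in blue and 5p arms in orange. Guides make up 46.1 to 60.9% in the OXI-EV libraries and 81.5 to 91.3% in the GLY-EV libraries.

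Across the 8 libraries the log2 CPM of miR-148a-3p went with that of miR-152-3p (Pearson's r = 0.95, Spearman's rho = 0.90) more closely than with that of miR-148b-3p (r = 0.77, rho = 0.69). With its own passenger the values were r = -0.17 and rho = 0.10. These r contain the difference between the groups. After each group's mean was taken away, the r of miR-148a-3p was 0.91 with miR-152-3p, 0.72 with miR-148b-3p and 0.70 with miR-148a-5p, so that its passenger and miR-148b-3p were then alike in this. These values are descriptions, and all members share the library and its scale. Of the 126 other abundant miRs, those most like miR-148a-3p over the 8 libraries were let-7a-5p (r = 0.991), let-7e-5p (0.991), let-7f-5p (0.988), miR-100-5p (0.987) and miR-199a-3p/miR-199b-3p (0.986). Their Spearman's rho was 0.90 to 0.98 and their log2 fold changes were between -2.78 and -1.27, so that each had a lower mean in OXI-EV, as had miR-148a-3p. After removal of the group means their r was 0.88 to 0.97.

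Other miRs have been described as repressing DNA methyltransferase mRNAs. Of the 9 listed (miR-29a-3p, miR-29b-3p, miR-29c-3p, miR-101a-3p, miR-101b-3p, miR-126a-3p, miR-143-3p, miR-185-5p and miR-342-3p), 3 were lower and 0 higher past the threshold. All 9 are among the 129 abundant miRs, of which 22.5% were past it, so nothing particular to the list is read from this count. The list was chosen with earlier results of these data known. The adjusted p-values below are over all miRs tested and do not account for that choice, so they lend the list no support. The median log2 fold change of the 9 was -1.93, beside 0.48 for all miRs tested and -1.12 for the abundant ones. miR-143-3p, the most abundant of the list and known from smooth muscle, averaged 349 ± 100.7 CPM over OXI-EV and 1355 ± 498 CPM over GLY-EV (log2 fold change -1.96, standard error 0.35, adjusted p = 0.0131 from edgeR). miR-101a-3p and miR-101b-3p, which also target the histone methyltransferase Ezh2, had log2 fold changes of -2.13 (standard error 0.46) and -2.21 (standard error 0.47), each with an edgeR adjusted p of 0.0341. miR-29a-3p, the second most abundant, did not pass at an edgeR adjusted p of 0.0656, with means of 143 ± 63.9 CPM for OXI-EV against 479 ± 188 CPM for GLY-EV. The count of 3 fell to 1 without OXI-EV replicate 1, GLY-EV replicate 1 or GLY-EV replicate 2 and to 0 without OXI-EV replicate 2 or 3, and rose to 5 without OXI-EV replicate 4.

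In the RefSeq table, 7 miRs hold the seed of the guides 1 base closer to the 5′ end. They are miR-130a-3p, miR-130b-3p, miR-130c, miR-301a-3p, miR-721, miR-6341 and miR-6389. The list of the miR-130 and miR-301 family used below lacks miR-130c, miR-6341 and miR-6389. It also holds miR-301b-3p and miR-454-3p, which were not among these matches. The shared bases are in capitals for miR-130a-3p.
miR-130a-3p: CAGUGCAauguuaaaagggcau
Of the 6 members listed (miR-130a-3p, miR-130b-3p, miR-301a-3p, miR-301b-3p, miR-454-3p and miR-721), 5 were in the count table and 4 were tested, with 0 past the threshold from edgeR, 0 at an unadjusted p under 0.05 and 0 with DESeq2, which gave no adjusted p for miR-130a-3p. Their median log2 fold change was 0.61. miR-130a-3p, the most abundant of them, gave 33, 37, 32 and 550 counts in the OXI-EV replicates, and 74, 35, 32 and 75 in the GLY-EV replicates. OXI-EV replicate 4 alone set its log2 fold change of 1.94 (standard error 0.91), which was -0.19 (standard error 0.57) without that library. For miR-301a-3p the log2 fold change was 0.52 (standard error 0.63). None of the listed relatives thus showed a lower level in OXI-EV past the test.

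Markers of endothelial cells had lower means in OXI-EV, and whether they passed the threshold depended on the fit. miR-126a-3p and miR-126a-5p, encoded in the endothelial gene Egfl7, summed to 53.1 to 198 CPM per OXI-EV library and 200.7 to 772 CPM per GLY-EV library, so that the highest of one group lay just under the lowest of the other. Of these 2 markers 0 were past the threshold from edgeR, although 2 had an unadjusted p under 0.05 with a lower level in OXI-EV. With TMM scaling 2 were lower past the threshold, and 1 with DESeq2 on the mapped-read scale. Over all 1569 miRs tested, 85, 85 and 60 were lower by these criteria, in that order. DESeq2 with its own size factors gave 2 markers lower past the threshold. The total miR count, the filter on a mean count of at least 100, and the replicate blocks by title and by preparation number gave 1 each. Over all miRs tested in these fits, 113, 48, 55, 36 and 29 were lower past it, in that order. The fit with no filter gave 0 markers. Both markers are among the 129 abundant miRs, whose median log2 fold change was -1.12 and of which 22.5% were past the edgeR threshold. For miR-126a-3p, which is also in the DNA methyltransferase list, the log2 fold change was -1.93 (edgeR adjusted p = 0.103) and for miR-126a-5p it was -1.57 (0.275). Each GLY-EV library also held more miR counts than any OXI-EV library. With the total miR count as library size, the log2 fold changes were -2.04 (standard error 0.28) for miR-148a-3p, -1.19 (0.34) for miR-152-3p and -0.58 (0.52) for miR-148b-3p. Those of the passengers miR-148a-5p, miR-148b-5p and miR-152-5p were 1.13, 1.61 and 0.50. The part of endothelial EVs and of the larger miR total in the family's difference was not tested.

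Markers of blood and liver cells overlapped between the groups. Leukocyte markers (miR-142a-3p, miR-142a-5p, miR-150-5p, miR-155-5p and miR-223-3p) summed to 26.2 to 55.4 CPM per OXI-EV library and 36.1 to 131.1 CPM per GLY-EV library. Erythroid markers (miR-144-3p, miR-144-5p and miR-451a) summed to 3.45 to 65.5 and 5.70 to 29.5 CPM, and liver markers (miR-122-5p and miR-122-3p) to 2.30 to 10.7 and 2.10 to 7.92 CPM. No marker was at 0 in every library of a group. Of the 5, 2 and 1 markers tested in these lists, 0 were past the threshold from edgeR and 0 were at an unadjusted p under 0.05. DESeq2 gave 0 on the mapped-read scale. TMM scaling and DESeq2 with its own size factors each gave 1 leukocyte marker lower in OXI-EV past the threshold and 2 lower at an unadjusted p under 0.05. Over all 1569 miRs tested, 85 and 113 were lower past the threshold in these fits, in that order. Among the most abundant markers, the log2 fold changes were -0.45 for miR-150-5p, -0.48 for miR-155-5p, 0.66 for miR-451a, 1.03 for miR-144-3p and 0.61 for miR-122-5p. The other leukocyte markers went both ways, at -1.15 (standard error 0.57) for miR-142a-3p, -1.14 (0.65) for miR-223-3p and 1.43 (0.79) for miR-142a-5p.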

How the data were processed

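Small RNA libraries of 4 OXI-EV and 4 GLY-EV preparations were made from 3 to 8 ng of RNA with a kit that adds unique molecular identifiers. The deposited counts give a whole number for each of 1755 miRs and 72 piRNAs per library, and the submitters' processing notes name cutadapt, STAR and build GRCm38. For their versions, the counting tool and strand handling, the sources used here state nothing. Because the authors' table of reads by class holds 2.63 to 4.94 times as many miR reads as there are miR counts, the counts may be molecules, which the sources do not state. Columns deposited by the authors with a signed fold change score, log2 fold change, p-value and FDR hold their own comparison and were not used.

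The members and lists were chosen with earlier results of these data known. Counts were fitted with edgeR 4.0.16 (quasi-likelihood, R 4.3.3, limma 3.58.1) with mapped reads as library size, keeping miRs that reached 10 counts in 4 or more libraries, and p-values were adjusted by Benjamini-Hochberg over all of them, with a threshold of 0.05. A standard error is the absolute log2 fold change over the root of its F statistic. Ratios used a pseudocount of 0.5 and exact sign-flip tests (Python 3.11.15). The miRs named are all members, the 5 most correlated with miR-148a-3p among miRs with a mean count of at least 100, and of each list those past the threshold and the 2 most abundant. The other leukocyte markers are given as well. Alternatives were TMM, the total miR count, DESeq2 1.42.0, other filters, replicate blocks, another pseudocount, and leaving out each library. Fits were tested on simulated data. Whether equal numbers came from the same mouse is not stated, although the paper compared EV release between the muscle types with paired t-tests. The fits and the sign-flip tests took the libraries as independent, which would not hold for libraries from the same mouse. The p-values are relative to the spread between these preparations only.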

Additional observations from a re-analysis of the deposited data

How the results depend on the processing

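On the mapped-read scale 29 miRs were past the threshold, 1 higher and 28 lower in OXI-EV. The count was 86 with TMM, 236 with the total miR count as library size and 90 with DESeq2 on mapped reads. It was 128 with DESeq2's own size factors and 64 among miRs with a mean count of at least 100. In that order, 2, 2, 2, 3 and 2 family members passed (beside 1). Of the DNA methyltransferase list, 7, 5, 6, 8 and 6 passed (beside 3). The main fit and all but the last of these tested 1569 miRs and 6 family members. The last tested 130 miRs and 3 family members. All 9 of the list were tested in each. The calls over all miRs rose as well, so nothing is read from these counts. The split of higher and lower was 1 and 85 with TMM, 188 and 48 with the total miR count, 30 and 60 with DESeq2 on mapped reads, 15 and 113 with its own size factors and 9 and 55 among the abundant miRs. Every guide had a log2 fold change below 0 under each alternative run for it. No same-numbered pair of libraries is stated to share a mouse, and their deviations from the group means did not all correlate (r from -0.45 to 0.17 by title number and 0.09 to 0.17 by preparation number). With a replicate block by title number 42 miRs passed (6 higher, 36 lower), and by preparation number 32 (3 higher, 29 lower), with 1 family member and 5 of the list in either fit. Under the block by preparation number the log2 fold change was -0.30 for miR-148b-5p and -0.02 for miR-148a-5p. The preparation numbers of OXI-EV replicate 2 and GLY-EV replicate 2 each occur in a single group, so these libraries do not enter that contrast. It is thus no separate check from leaving out OXI-EV replicate 2. Leaving out 1 library gave 10 to 29 miRs, 0 to 1 family members and 0 to 5 of the list.

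Within OXI-EV alone the log2 ratio of 3p to 5p for miR-148a turned to -0.11, and the ratios for the arms of miR-148b and miR-152, and for miR-148a-3p to miR-148b-3p, miR-148a-3p to miR-152-3p and miR-152-3p to miR-148b-3p, were 1.30, 0.23, 1.41, 0.90 and 0.51. Within GLY-EV alone these 5 were 3.17, 2.02, 2.55, 1.74 and 0.81. With 4 libraries none can pass the threshold. Leaving out 1 library, the arm ratio of miR-148a ranged from 1.13 to 1.78 and passed without OXI-EV replicate 2, that of miR-152 ranged from 0.88 to 1.32, and miR-152-3p to miR-148b-3p from 0.58 to 0.86. The cause of these changes was not tested. For miR-148b-5p, leaving out OXI-EV replicate 2 moved the log2 fold change from 1.16 to -0.11.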
